A study of Mus musculus with 9 samples.

Results

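This report compares cultured mouse cells at both ends of a series of B cell development stages: a line lacking Rag2 (RAG2ko), labelled as committed to the B lineage, and a line lacking the transcription factor EBF (EBFko), labelled as specified to the lymphoid fate. The comparison was chosen by label alone, as the 3 arrays titled RAG2ko against the 3 titled EBFko, so it takes 6 of the 9 arrays of the study. The remaining 3 arrays hold a Pax5-deficient line (Pax5ko) labelled as B lineage specified, a stage between the other lines. They entered the normalization, the filter and the estimate of spread behind every SE, interval and p-value of the main comparison. Each array is an Affymetrix mouse expression array hybridised with biotin-labelled cRNA made from total RNA.

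The EBFko cells grew in standard medium with 10 ng/ml of recombinant human Flt3 ligand and 10 ng/ml of recombinant mouse IL-7, whereas the RAG2ko cells grew in 10 ng/ml of mouse IL-7 without Flt3 ligand. The Pax5ko cells had the same cytokines as the EBFko cells, so RAG2ko against Pax5ko differs in medium too. No other treatment was given to any culture. Mouse strain, sex, passage and the number of clones behind each line are not stated in the material used here, and nothing says that the 3 arrays of a line came from separate cultures, so the p-values measure the spread between these arrays, which may be technical. The missing gene, the stage and the medium all differ together between the lines, so their effects cannot be told apart.

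B cell development starts from multipotent progenitors that carry the cytokine receptors Flt3 and Kit. Early B cell factor, encoded by Ebf1, works with E proteins to switch on the genes of the pre-B cell receptor, in which the immunoglobulin heavy chain pairs with the surrogate light chain made of Vpreb and Igll1 proteins and signals through Cd79a and Cd79b. Pax5 then adds further B cell genes and represses genes of other blood lineages. Rag1 and Rag2 form the recombinase that cuts immunoglobulin gene segments, and cells without Rag2 stop at the pro-B stage with their heavy chain genes unrearranged.

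The promoters of 4 genes known from the literature to be activated by Ebf1 are shown because their transcripts rose between the lines and 2 of them hold the letters searched for. The sequences are from RefSeq on build GRCm38.p6, each 300 bases long around the annotated start of transcription, in the gene's own direction, with matches to an EBF motif or to an E box in capitals.
Igll1, chr16:16863936-16864235, strand -: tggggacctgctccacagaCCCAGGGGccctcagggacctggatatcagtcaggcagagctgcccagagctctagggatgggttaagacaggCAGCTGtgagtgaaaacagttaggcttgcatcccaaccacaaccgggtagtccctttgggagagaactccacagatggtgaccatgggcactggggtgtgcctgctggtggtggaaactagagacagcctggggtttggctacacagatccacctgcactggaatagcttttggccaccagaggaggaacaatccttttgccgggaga
Foxo1, chr3:52268087-52268386, strand +: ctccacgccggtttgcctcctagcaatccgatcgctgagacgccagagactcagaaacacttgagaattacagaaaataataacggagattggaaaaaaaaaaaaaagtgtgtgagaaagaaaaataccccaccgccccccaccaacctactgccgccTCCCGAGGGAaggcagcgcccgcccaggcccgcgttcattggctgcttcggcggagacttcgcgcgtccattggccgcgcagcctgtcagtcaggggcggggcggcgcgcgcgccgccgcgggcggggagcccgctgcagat
Vpreb1, chr16:16869206-16869505, strand -: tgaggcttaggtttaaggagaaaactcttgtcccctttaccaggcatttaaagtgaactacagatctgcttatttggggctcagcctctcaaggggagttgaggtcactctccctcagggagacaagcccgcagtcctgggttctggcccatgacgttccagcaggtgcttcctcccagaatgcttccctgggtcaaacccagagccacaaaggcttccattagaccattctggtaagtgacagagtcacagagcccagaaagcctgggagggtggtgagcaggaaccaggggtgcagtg
Cd79a, chr7:24897247-24897546, strand +: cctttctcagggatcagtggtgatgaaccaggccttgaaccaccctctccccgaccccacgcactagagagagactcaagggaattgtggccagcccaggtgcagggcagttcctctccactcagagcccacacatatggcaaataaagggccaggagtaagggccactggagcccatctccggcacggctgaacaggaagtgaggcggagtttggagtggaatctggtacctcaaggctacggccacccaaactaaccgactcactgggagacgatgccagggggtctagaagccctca

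The motifs searched were an inner part of the EBF site, CCCNNGGG, the full EBF consensus, which is the inner part with T before it and A after it, and the E box CAGCTG, each equal to its own reverse complement so that both strands were covered, and every consensus therefore also counts as an inner part. The promoter of Foxo1, a transcription factor that acts upstream of the recombinase genes, holds 1 consensus site. The promoter of Igll1, a component of the surrogate light chain, holds 1 inner part and 1 E box, and those of Vpreb1 and Cd79a hold none of the 3 letter strings in this window. RefSeq promoters were found for 15 of the 19 genes of the list of genes known to be activated by Ebf1, in 16 promoters. The consensus occurred in 2 of these 16 (Foxo1 and Ceacam1) and in 0.904% of all 32851 promoters, the inner part in 3 of 16 and 13.7% of all, and the E box in 2 of 16 (Igll1 and Vpreb2) and 16.3% of all. These matches describe the letters only.

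The arrays carry 45101 probe sets, and values are log2 of the deposited intensities after quantile normalization over the 9 arrays. Median deposited signals of the 6 arrays ranged from 73.2 to 97.4, and 41.0% to 46.7% of probe sets lay below a signal of 64. Over tested probe sets, arrays of the EBFko line correlated with each other at r = 0.904 to 0.923 and arrays of the RAG2ko line at 0.884 to 0.900, against 0.818 to 0.859 between the lines. The array labelled RAG2ko-3 stood apart from the other RAG2ko arrays in several signals. Its mean level of 29 stromal cell genes was 9.13, against 6.15 and 6.66 on RAG2ko-1 and RAG2ko-2 and 9.66, 8.43 and 9.75 on the EBFko arrays, and its Rag2 and Rag1 signals were above those of its replicates. So were its signals of Dntt, Il7r and the Y-linked genes Ddx3y and Eif2s3y, all given below. Where leaving out that array changed the count of a gene list or the call of a gene named below, the value without it is given too.

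The targeted genes were read first. Ebf1 was bright on every array, at 10.67, 11.10 and 10.85 on the EBFko arrays in replicate order and 11.76, 11.83 and 12.44 on the RAG2ko arrays. The RAG2ko arrays lay above all EBFko arrays by 1.14 ± 0.22 (difference in log2 signal ± SE, n = 3 arrays per line, adjusted p = 0.0165, limma with Benjamini-Hochberg adjustment). Another Ebf1 probe set rose by 1.21 and the third did not pass the test, at 0.59 (adjusted p = 0.126). Whether these probe sets lie inside the part of Ebf1 that was removed is not stated, and an Ebf1 signal on the EBFko arrays therefore neither checks nor contradicts the label.

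Rag2 read 5.96, 5.60 and 9.10 on the RAG2ko arrays and 9.16, 8.83 and 10.16 on the EBFko arrays. Its signal was low on RAG2ko-1 and RAG2ko-2, while the array labelled RAG2ko-3 lay within the EBFko range, so Rag2 goes against the label of that array if the probe set lies in the removed part, which is not stated. The difference was -2.50 ± 0.89 and did not pass the test (adjusted p = 0.119), and without that array it was -3.60 (adjusted p = 0.0043). Rag1, the partner recombinase gene, read 8.03, 7.41 and 10.75 on the RAG2ko arrays and 8.22, 8.61 and 9.48 on the EBFko arrays, a difference of -0.04 (95% interval -1.99 to 1.91), which was -1.05 without the array labelled RAG2ko-3 and again did not pass (adjusted p = 0.183). The signals of the surrogate light chain genes and of Cd79a and Cd79b, given below, were bright on all 3 RAG2ko arrays. The Pax5ko means of Vpreb1, Igll1 and Cd79b were also high, at 14.13, 13.38 and 12.21, so these signals do not check the label of a RAG2ko array.

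Across the array, 2623 of 40928 tested probe sets were higher in RAG2ko (6.41%) and 2550 were lower (6.23%) at an adjusted p under 0.05, which is what called, rose and fell mean here. Taking for each named gene its brightest tested probe set, 827 of 9458 genes were higher (8.74%) and 798 were lower (8.44%). Of these, 574 rises and 625 falls were at least 2-fold, and the RAG2ko and EBFko arrays did not overlap for any called gene, although 40.1% of all genes tested had arrays that did not overlap. The median difference over all genes was 0.06, and the median half-width of the 95% interval of a gene was 0.66. Of 846 called genes with 2 or more tested probe sets, 279 had all of them called the same way and 11 had another called the opposite way. For Bach2, Notch2, Bcl2, Ptpn6, Ccnd3, Pfkp, Zap70, Xrcc6, Cers6, Spry2, Cdkn1a, Cd3e, Fcrla and H2-Aa, among others, only the brightest probe set was called. Without the array labelled RAG2ko-3, 872 genes were higher (9.22%) and 1031 were lower (10.9%), and 680 of the 827 rises and 717 of the 798 falls were called again. As the plot of mean signals shows, the rises and falls were spread over a wide range of brightness. They were rare among the 2319 genes whose means were below a signal of 64 in both lines, where 27 rose and 31 fell. The counts of each gene list below are to be read beside the 8.74% and 8.44% of all genes. Those of probe set families are to be read beside the 6.41% and 6.23% of all probe sets. Some list members, among them Igll1, Foxo1, Bst1 and Ncf1, were named only from the descriptions of their probe sets. Part of those names were looked up for probe sets already known to be called, so list shares are not strictly comparable with the share over all genes.

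**Figure D1:**
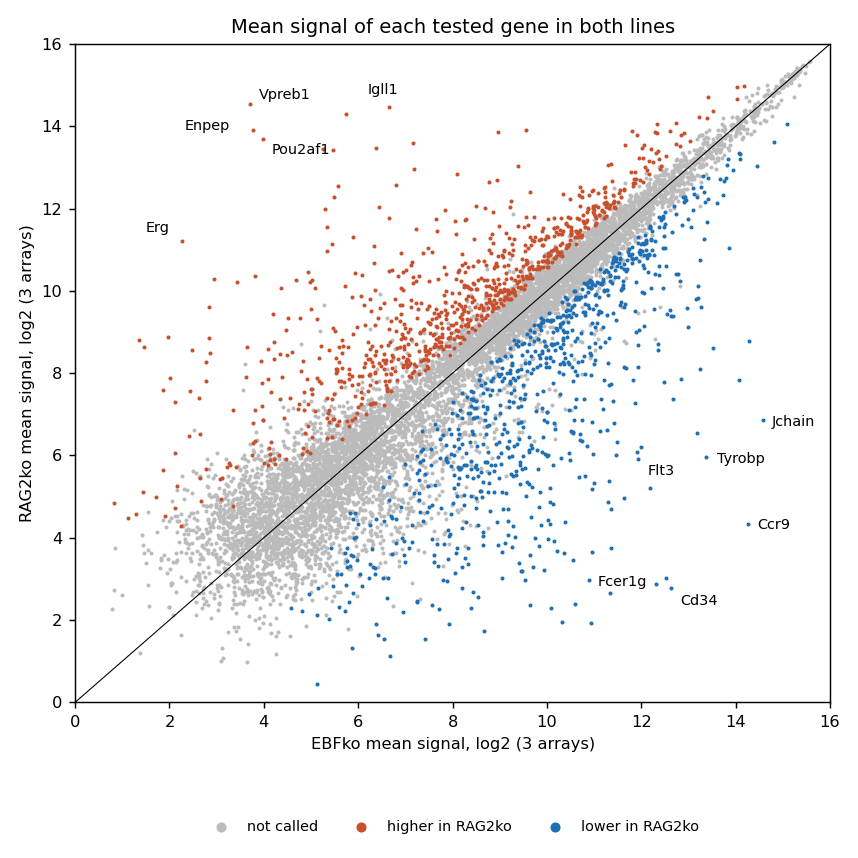
Mean log2 signal of each named gene on the 3 EBFko arrays (horizontal axis) and the 3 RAG2ko arrays (vertical axis), 1 point per gene, with genes called at an adjusted p under 0.05 in colour. The line marks equal signal; Vpreb1, Enpep, Pou2af1 and Erg lie far above it and Ccr9, Cd34 and Fcer1g far below it.

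Dim signals set limits on the size of a change. In 150 of the 827 rises the EBFko mean was below a signal of 64 (6 on the log2 scale) and the RAG2ko mean was not, and in 224 of the 798 falls the reverse held. Below that level the deposited values spread widely, so differences that reach into it are also given after raising all signals below 64 to 64, called the floored difference here, where this makes them clearly smaller. On that scale 517 rises and 561 falls were at least 2-fold, and 42 rises and 58 falls were at least 16-fold. Both means were below 64 for 27 rises and 31 falls.

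Genes of the pre-B cell receptor and its partners made up 6 of the 12 largest rises by floored difference. Of 28 tested genes on the list for the pre-B and B cell receptors, 14 rose and 4 fell, with a median difference of 1.03 against 0.06 over all genes, and 11 rose and 3 fell without the array labelled RAG2ko-3. Vpreb1, the first of the surrogate light chain genes, read 2.83, 2.20 and 6.06 on the EBFko arrays and 14.55, 14.53 and 14.52 on the RAG2ko arrays. It was near or below the dim limit on every EBFko array and above 14 on every RAG2ko array, a difference of 10.84 ± 0.89 and a floored difference of 8.51 (adjusted p = 0.000442). Vpreb2, its close copy, read 5.76, 5.70 and 5.76 against 14.22, 14.23 and 14.44, a difference of 8.56 ± 0.15 (adjusted p = 1e-06). The arrays of each line lay within a narrow range for Vpreb2, but the signal of its probe set may be shared with Vpreb1 because the genes are near-identical.

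Igll1, also called lambda 5, read 6.42, 6.75 and 6.79 on the EBFko arrays and 14.38, 14.43 and 14.59 on the RAG2ko arrays. The difference was 7.81 ± 0.16 (adjusted p = 2.11e-06), and both of its probe sets rose. The dimmer probe set missed the threshold without the array labelled RAG2ko-3 (adjusted p = 0.0555). Vpreb3, which binds immunoglobulin chains in the endoplasmic reticulum, read 6.27, 6.20 and 6.65 against 13.20, 13.30 and 13.87, a difference of 7.08 ± 0.22 (adjusted p = 1.6e-05). Igll1 and Vpreb3 were thus just above the dim limit on all EBFko arrays, and their floored differences were also 7.81 and 7.08.

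Cd79a, a signalling chain of the receptor, read 4.88, 5.08 and 5.83 on the EBFko arrays and 13.31, 13.32 and 13.71 on the RAG2ko arrays, a difference of 8.18 ± 0.27 and a floored difference of 7.45 (adjusted p = 1.6e-05). Cd79b, its partner chain, read 4.72, 5.30 and 6.72 against 12.31, 12.36 and 12.97, a difference of 6.97 ± 0.48 and a floored difference of 6.31 (adjusted p = 0.000193). Both chains were dim on the EBFko arrays, except Cd79b on EBFko-3, and bright on the RAG2ko arrays. Blnk, an adaptor protein of receptor signalling, read 8.56, 8.28 and 10.09 against 13.70, 13.48 and 14.38, a difference of 4.88 ± 0.49 (adjusted p = 0.00106). Blnk was therefore well above the dim limit in both lines, and highest within the EBFko line on EBFko-3. The constant region of the mu heavy chain, Ighm, read 13.09, 13.01 and 13.55 against 13.81, 14.21 and 14.65, a difference of 1.0 that was called with all arrays (adjusted p = 0.0403) and missed the threshold without the array labelled RAG2ko-3 (adjusted p = 0.0654).

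The 4 genes of the receptor list that fell were the tyrosine kinase Lyn (-1.37 ± 0.15), the phosphatase Ptpn6 (-1.51 ± 0.16), the adaptor Dapp1 (-1.68 ± 0.41) and the Fc receptor-like gene Fcrla (-2.20 ± 0.41). Lyn and Ptpn6 are known to act in myeloid cells as well as in B cells. Dapp1 missed the threshold without the array labelled RAG2ko-3 (adjusted p = 0.0789), and Fcrla was dim on all RAG2ko arrays, at 4.30, 5.39 and 5.56, with a floored difference of -1.29.

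Transcription factors of the B lineage moved in both directions, with 8 of 28 tested genes higher and 7 lower and a median of 0.28, and 8 higher and 8 lower without the array labelled RAG2ko-3. Pou2af1, a B cell coactivator of octamer-binding factors, read 3.27, 4.66 and 4.02 on the EBFko arrays and 13.55, 13.58 and 13.92 on the RAG2ko arrays. The difference was 9.70 ± 0.33 and the floored difference 7.68 (adjusted p = 1.6e-05), with all EBFko arrays dim. Lef1, a nuclear partner of beta-catenin expressed in pro-B cells, read 6.02, 5.38 and 6.30 against 10.81, 11.14 and 11.97, a difference of 5.41 ± 0.36 (adjusted p = 0.000174). Irf4, which acts in pre-B cells and plasma cells, read 6.65, 7.25 and 6.80 against 9.68, 9.82 and 10.67, a difference of 3.16 ± 0.33 (adjusted p = 0.00118).

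Foxo1 read 7.39, 7.30 and 7.97 on the EBFko arrays and 10.83, 11.16 and 10.85 on the RAG2ko arrays. All 3 of its probe sets rose, the brightest by 3.39 ± 0.22 (adjusted p = 0.000162). Id3, an inhibitor of E proteins, rose by 3.50 ± 0.31 (adjusted p = 0.000608) from EBFko values of 6.58 to 7.54 to RAG2ko values of 10.49 to 10.83. Pax5 itself read 3.06, 6.32 and 6.03 against 6.77, 7.21 and 7.33, and did not pass the test (1.97, 95% interval -0.41 to 4.35, adjusted p = 0.267). Its highest level, 7.33, was not far above the dim limit, and its arrays did not overlap between the lines. After signals below 64 were raised to 64, Pax5 passed (adjusted p = 0.00315) with a floored difference of 0.99.

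The factors that fell included Bach2, a repressor of plasma cell genes (-2.07 ± 0.42, with 1 of its 2 probe sets lower), Mef2c (-1.52 ± 0.25, with all 5 probe sets lower) and Arid3a (-1.5 ± 0.24). Bach2 read 10.22, 10.69 and 10.14 on the EBFko arrays and 7.83, 7.83 and 9.18 on the RAG2ko arrays, so that the array labelled RAG2ko-3 was nearest to the EBFko line. Id2, the E protein inhibitor of natural killer and innate cells, read 11.76, 11.85 and 11.06 against 10.87, 10.78 and 10.79, and its brightest probe set did not pass (-0.74, 95% interval -1.45 to -0.04, adjusted p = 0.163). Its other probe set fell by 1.06 (adjusted p = 0.039) and missed the threshold without the array labelled RAG2ko-3 (adjusted p = 0.0703).

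**Figure D2:**
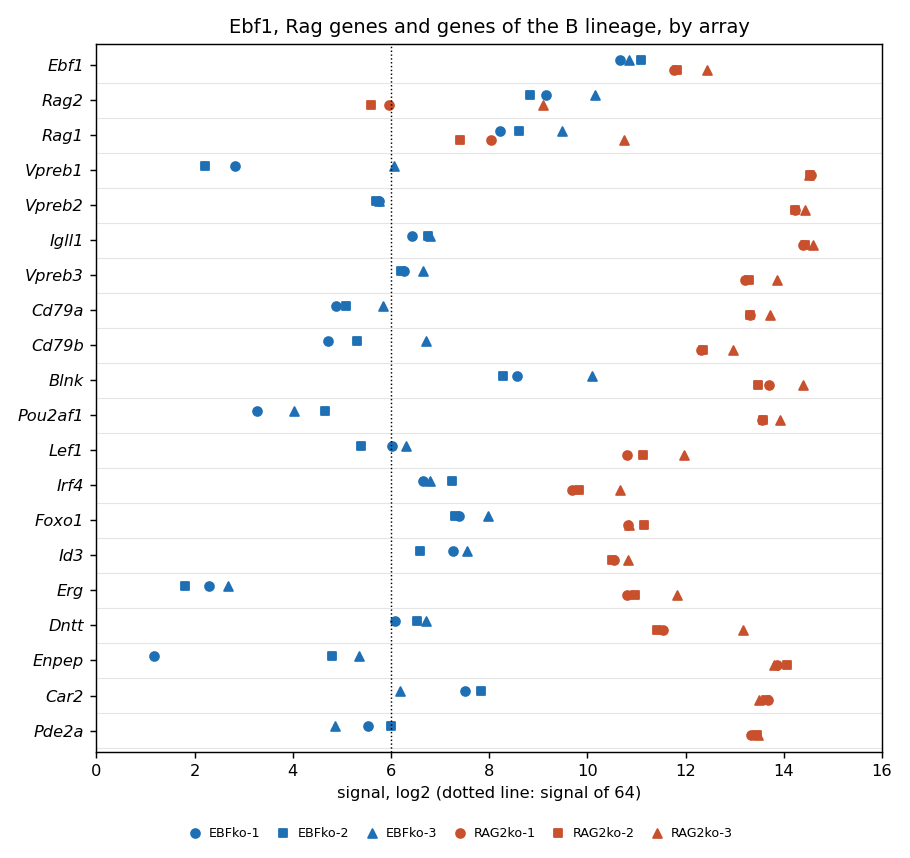
Log2 signal of 20 genes on each EBFko array (blue) and RAG2ko array (orange), with replicate 1, 2 and 3 as circle, square and triangle. Pre-B cell receptor genes lie on separate sides of the plot in both lines, whereas Rag2 and Rag1 on the array labelled RAG2ko-3 (9.10 and 10.75) lie apart from the other RAG2ko arrays.

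Genes known from the literature to be activated by Ebf1 rose in 10 of 19 cases and fell in 1, with a median of 1.18, and the counts were 9 and 3 without the array labelled RAG2ko-3. The 10 included Vpreb1, Vpreb2, Vpreb3, Igll1, Cd79a, Cd79b, Pou2af1 and Foxo1, most of which the receptor list also holds. Hes1, a repressor that is also a Notch target, rose by 1.03 ± 0.19 (adjusted p = 0.0127). Genes known to be activated by Pax5 rose in 14 of 23 cases and fell in 1, with a median of 1.72, and in 13 and 2 without that array. Among them Cplx2, which acts in vesicle fusion, read 6.46, 6.85 and 6.63 on the EBFko arrays and 11.85, 11.54 and 11.93 on the RAG2ko arrays, a difference of 5.13 ± 0.21 (adjusted p = 2.42e-05). Tnfrsf13c, the receptor for the survival factor BAFF, rose by 2.47 ± 0.33 (adjusted p = 0.00353). Bst1, a surface enzyme of early B cells, was dim or nearly so on the EBFko arrays (5.0, 4.39 and 6.65) and read 10.69, 10.45 and 11.74 on the RAG2ko arrays, a difference of 5.62 ± 0.65 and a floored difference of 4.75 (adjusted p = 0.00196).

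Genes known to be repressed by Pax5 moved the other way, with 0 of 23 higher and 11 lower and a median of -1.73, and the same counts without the array labelled RAG2ko-3. Ccr9, a chemokine receptor of thymus- and gut-homing cells, read 14.36, 14.37 and 14.08 on the EBFko arrays and 5.73, 4.84 and 2.45 on the RAG2ko arrays. It was above 14 on every EBFko array and dim on every RAG2ko array, a difference of -9.93 ± 0.74 and a floored difference of -8.27 (adjusted p = 0.000282), and 4 of its 5 probe sets fell. Jchain, which joins secreted IgM and IgA, read 14.94, 14.87 and 13.90 against 6.70, 6.91 and 6.95, a difference of -7.72 ± 0.28 (adjusted p = 1.62e-05). Fcer1g, the common signalling chain of Fc receptors, read 12.52, 12.58 and 12.47 against 2.17, 4.06 and 2.80, a difference of -9.51 ± 0.43 and a floored difference of -6.52 (adjusted p = 3.3e-05). In the EBFko line these 3 genes were bright on all arrays. Notch1 fell by 1.73 ± 0.25 (adjusted p = 0.00495) but stayed above 9 on every RAG2ko array.

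Receptors and markers of multipotent progenitors fell in 10 of 26 cases and rose in 4, with a median of -0.24, and fell in 9 and rose in 4 without the array labelled RAG2ko-3. Cd34, a surface glycoprotein of early progenitors, read 12.20, 12.23 and 13.47 on the EBFko arrays and 2.73, 2.25 and 3.33 on the RAG2ko arrays. The difference was -9.86 ± 0.67 and the floored difference -6.63 (adjusted p = 0.000187), with every RAG2ko array far below the dim limit. Flt3, the receptor whose ligand was added to the EBFko cultures and not to the RAG2ko cultures, read 11.93, 11.80 and 12.09 against 6.63, 5.68 and 5.45, a difference of -6.02 ± 0.30 (adjusted p = 4.98e-05). Kit, the receptor for stem cell factor, read 8.78, 8.84 and 9.89 against 5.65, 5.23 and 3.26, a difference of -4.46 ± 0.62 and a floored difference of -3.17 (adjusted p = 0.00408). Hoxa10, a homeobox gene of early blood progenitors, fell from 11.07, 11.37 and 11.62 to 4.01, 4.87 and 2.39 (-7.60 ± 0.57, floored difference -5.35, adjusted p = 0.000283). These 4 genes were below the dim limit on all RAG2ko arrays, except Flt3 on RAG2ko-1.

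The members of the progenitor list that rose were led by Erg, an ETS factor of stem cells that also acts in pro-B cells. It read 2.29, 1.81 and 2.67 on the EBFko arrays and 10.81, 10.96 and 11.82 on the RAG2ko arrays, a difference of 8.94 ± 0.33 and a floored difference of 5.20 (adjusted p = 1.62e-05), and both of its probe sets rose. Slamf1, a self-ligand receptor, rose by 2.85 ± 0.28 (adjusted p = 0.000926), and Eng, a co-receptor of the TGF-beta family, by 2.10 ± 0.43 (adjusted p = 0.0196).

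Genes of T, natural killer and innate cells, of myeloid cells and of dendritic cells were mostly lower in RAG2ko where they were called. Of 25 tested genes of the natural killer and innate list, 8 fell and 1 rose (median -1.80), of 20 T cell genes 8 fell and 3 rose (median -1.20), of 26 myeloid genes 4 fell and 1 rose (median -0.58; 6 fell without the array labelled RAG2ko-3), and of 15 dendritic cell genes 5 fell and 0 rose (median -0.46). These medians include many genes that were dim in both lines, among them 8 of the natural killer list and 7 of the myeloid list. With signals below 64 raised to 64, the medians were -0.60, -0.54, -0.40 and -0.05 in the same order.

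Tyrobp, an adaptor of activating receptors in natural killer and myeloid cells, read 13.21, 13.37 and 13.55 on the EBFko arrays and 6.03, 6.29 and 5.57 on the RAG2ko arrays, a difference of -7.41 ± 0.28 (adjusted p = 1.62e-05). Fcgr3, a low-affinity IgG receptor, read 12.15, 12.35 and 12.08 against 4.91, 5.08 and 5.61, a difference of -6.99 ± 0.22 and a floored difference of -6.19 (adjusted p = 1.6e-05). Both were bright on all EBFko arrays and near or below the dim limit on all RAG2ko arrays. Il18r1, a chain of the interleukin-18 receptor, was uneven within the EBFko line, at 12.29, 12.46 and 9.25, and read 1.96, 1.22 and 4.81 on the RAG2ko arrays (-8.67 ± 1.37, floored difference -5.33, adjusted p = 0.00708). Hcst, an adaptor like Tyrobp, was the 1 member that rose, by 1.81 ± 0.27 (adjusted p = 0.00542).

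Among T cell genes, Cd7 read 10.06, 10.45 and 9.96 on the EBFko arrays and 3.86, 3.95 and 3.92 on the RAG2ko arrays (-6.25 ± 0.17, floored difference -4.16, adjusted p = 1.41e-05). Txk, a kinase of T and natural killer cells, fell by 7.79 ± 0.72 on the log2 scale (adjusted p = 0.000741), with a floored difference of -4.09. Gata3, the T cell and innate lymphoid regulator, read only 6.26, 6.35 and 7.05 on the EBFko arrays, so that its difference of -5.02 became -0.55 after flooring and then missed the threshold (adjusted p = 0.0788). Lat, the linker of T cell activation that is also made in pre-B cells, rose by 2.81 ± 0.20 (adjusted p = 0.000208), and the kinase Zap70 rose by 1.22 ± 0.21 (adjusted p = 0.0107). The third rise, Cd3e, took place between 2.96 and 5.17 and was below the dim limit on all 6 arrays. Tcf7, a T lineage factor, did not pass (-0.80, 95% interval -1.96 to 0.37, adjusted p = 0.358).

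Probe sets for T cell receptor segments, known by their descriptions alone, fell in 4 of 26 cases and rose in 0. A probe set described as a gamma chain variable region, V108B, read 12.77, 12.98 and 13.29 on the EBFko arrays and 4.78, 4.99 and 4.68 on the RAG2ko arrays, a difference of -8.20 ± 0.39 and a floored difference of -7.01 (adjusted p = 4.08e-05). It was above 12 on every EBFko array and dim on every RAG2ko array, and it was singled out after its values were seen. The 3 other T cell receptor probe sets that fell are described as alpha chain segments and changed by -2.13 to -5.17. Their floored differences were -2.13 to -2.78. Of 21 immunoglobulin heavy chain probe sets 2 rose (1 without the array labelled RAG2ko-3), of 16 kappa chain probe sets 1 rose, and none of these fell. Over all probe sets tested, 6.41% rose and 6.23% fell, so the rises of immunoglobulin probe sets were near the background.

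In the myeloid list, Ncf1, a subunit of the phagocyte oxidase, read 11.74, 11.87 and 12.11 on the EBFko arrays and 6.45, 6.58 and 5.24 on the RAG2ko arrays, a difference of -5.81 ± 0.36 (adjusted p = 0.000121). Adgre1, an adhesion receptor that marks macrophages, fell by 4.36 ± 0.48 on the log2 scale (floored difference -3.83, adjusted p = 0.00149), and Cebpb, a factor of myeloid cells, fell by 3.18 ± 0.51 (adjusted p = 0.00747). Csf1r, the receptor that defines macrophages, read 6.82, 7.16 and 7.17 against 7.97, 5.94 and 6.89 and did not differ detectably (-0.12, 95% interval -1.18 to 0.95, adjusted p = 0.905). Gfi1, a repressor in granulocyte and lymphoid precursors, rose by 1.11 ± 0.14 (adjusted p = 0.00268). In the dendritic cell list, Cox6a2, a mitochondrial subunit found in plasmacytoid dendritic cells, read 13.28, 13.29 and 13.15 against 7.85, 7.74 and 8.71 (-5.14 ± 0.28, adjusted p = 6.77e-05). Among erythroid, megakaryocyte and mast cell genes 1 of 20 rose, the carbonic anhydrase Car2, which read 7.50, 7.83 and 6.19 against 13.68, 13.63 and 13.49 (6.43 ± 0.39, adjusted p = 0.000116), and 0 fell, while 11 of the 20 were dim in both lines. Over all genes tested, 8.74% rose and 8.44% fell.

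**Figure D3:**
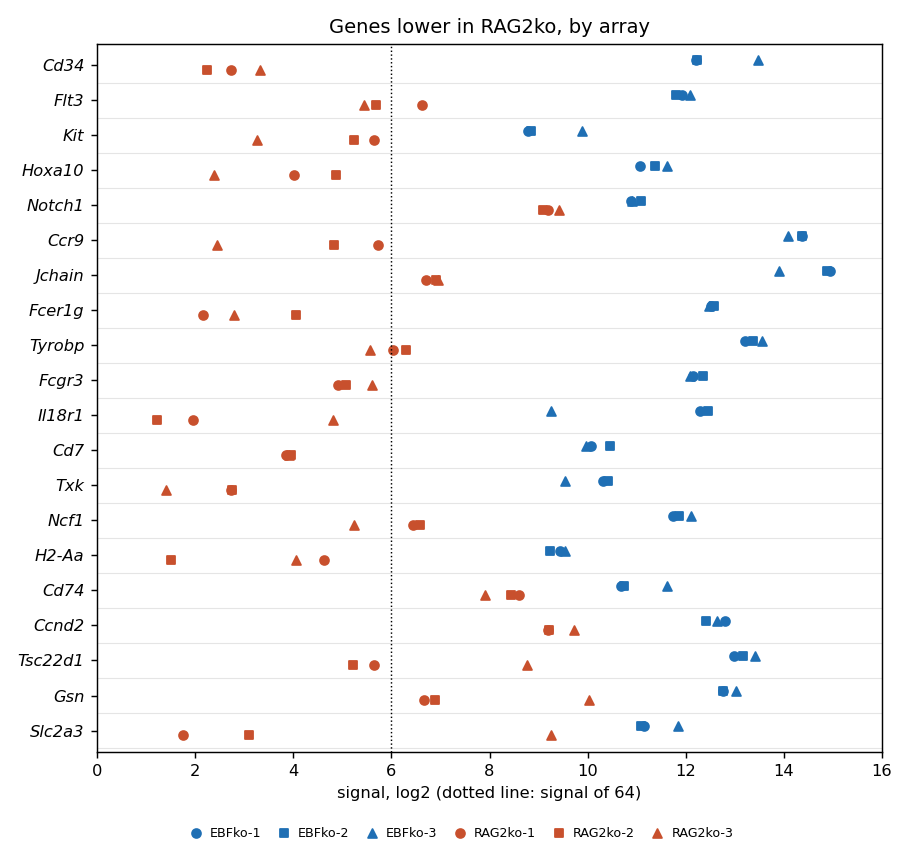
Log2 signal of 20 genes that were lower in RAG2ko, on each EBFko array (blue) and RAG2ko array (orange), with replicate 1, 2 and 3 as circle, square and triangle. For Tsc22d1, Gsn and Slc2a3 the array labelled RAG2ko-3 lies between its replicates and the EBFko arrays, whereas for Cd34, Ccr9 and Fcer1g it lies with its replicates.

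Genes of antigen presentation split by class. Of 13 tested genes of the MHC class II list 7 fell and 0 rose, with a median of -1.72, and by description 10 of 22 class II probe sets fell and 0 rose. Cd74, the invariant chain, read 10.67, 10.74 and 11.62 on the EBFko arrays and 8.61, 8.43 and 7.91 on the RAG2ko arrays (-2.69 ± 0.31, adjusted p = 0.00173). H2-Aa, a class II alpha chain, read 9.43, 9.24 and 9.54 against 4.63, 1.5 and 4.05 (-6.01 ± 0.74, floored difference -3.40, adjusted p = 0.0025), and H2-DMb1, a peptide-loading chain, fell by 3.20 ± 0.40 on the log2 scale (adjusted p = 0.00256). All 3 were lower on each RAG2ko array than on any EBFko array.

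By contrast, 16 of 33 class I probe sets rose and 0 fell, with a median of 1.35, and 15 rose and 1 fell without the array labelled RAG2ko-3. Probe sets of the same named gene did not agree in size. Within H2-D1, 1 bright probe set read 13.13, 13.01 and 12.40 against 13.64, 13.66 and 14.08, a difference of 0.95, while another read 2.95, 5.13 and 1.91 against 12.85, 12.86 and 13.23, a difference of 9.65 ± 0.84 and a floored difference of 6.98 (adjusted p = 0.000567). The first was bright in both lines and the second was dim on all EBFko arrays and bright on all RAG2ko arrays. The first was called with all arrays (adjusted p = 0.0396) but not without the array labelled RAG2ko-3 (adjusted p = 0.0786). Of the 33 class I probe sets, 16 carry a suffix that marks matches to several transcripts, and class I genes are near-identical and differ between mouse strains, so which gene or allele each one reads is uncertain. The class I probe sets were singled out after their values were seen.

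Chemokine receptors and adhesion genes fell in 12 of 24 cases and rose in 0, with a median of -1.99 and the same counts without the array labelled RAG2ko-3. Next to Ccr9, P2ry14, a receptor for UDP-sugars, read 11.03, 11.19 and 10.58 on the EBFko arrays and 1.82, 1.87 and 2.06 on the RAG2ko arrays (-9.02 ± 0.71, floored difference -4.93, adjusted p = 0.000355). Itgb7, an integrin chain of gut-homing cells, read 9.87, 10.13 and 10.20 against 3.87, 4.54 and 4.59 (-5.73 ± 0.27, floored difference -4.06, adjusted p = 3.94e-05). The genes named here were dim on every RAG2ko array.

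Surface genes of the pro-B and pre-B stages moved in both directions, with 5 of 19 higher and 6 lower, and 6 higher and 5 lower without the array labelled RAG2ko-3. Enpep, the BP-1 antigen of late pro-B and pre-B cells, read 1.17, 4.80 and 5.34 on the EBFko arrays and 13.87, 14.06 and 13.80 on the RAG2ko arrays. The difference was 10.14 ± 1.19 and the floored difference 7.91 (adjusted p = 0.00205), from dim on all EBFko arrays to bright on all RAG2ko arrays. Ly6d, a mark of B-biased lymphoid progenitors, fell from 11.14, 11.42 and 9.85 to 4.32, 6.83 and 5.33 (-5.31 ± 0.66, floored difference -4.53, adjusted p = 0.00261). Cd9, a tetraspanin also made by stromal cells, read 11.01, 11 and 11.95 against 3.14, 4.65 and 8.31, a difference of -5.95 ± 1.22 and a floored difference of -4.55 (adjusted p = 0.0197).

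Of the genes of V(D)J recombination and end joining 4 of 15 rose and 1 fell, and 4 rose and 2 fell without the array labelled RAG2ko-3. Dntt, the enzyme that adds untemplated nucleotides to joins, read 6.08, 6.52 and 6.72 on the EBFko arrays and 11.54, 11.42 and 13.17 on the RAG2ko arrays. All 3 of its probe sets rose, the brightest by 5.61 ± 0.49 (adjusted p = 0.000607), and the array labelled RAG2ko-3 was the highest. Xrcc5 rose by 1.84 ± 0.28 and Lig4, the ligase of end joining, by 1.66 ± 0.30, while Xrcc6, its Ku partner, fell by 0.87 ± 0.20 on the log2 scale (adjusted p = 0.00606, 0.0126 and 0.0303).

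Both media held IL-7, and the receptor gene Il7r read 12.44, 12.68 and 12.34 on the EBFko arrays and 12.09, 12.12 and 13.40 on the RAG2ko arrays, a difference of 0.05 (95% interval -0.77 to 0.86, adjusted p = 0.951). In the list of IL-7 receptor signalling 3 of 20 genes rose and 6 fell, with a median of -0.05, and 5 rose and 4 fell without the array labelled RAG2ko-3. Pim1, a kinase induced by STAT5, read 13.18, 13.25 and 13.21 against 10.23, 10.01 and 9.21 (-3.39 ± 0.27, adjusted p = 0.000385), although its other probe set was called higher. The D cyclins moved in opposite directions. Ccnd2 read 12.79, 12.42 and 12.64 against 9.19, 9.22 and 9.73 (-3.24 ± 0.20, adjusted p = 0.000113), with 6 of its 7 probe sets lower, and Ccnd3 read 11.88, 11.82 and 12.44 against 13.41, 13.51 and 13.72 (1.5 ± 0.22, adjusted p = 0.00532). Bcl2, the survival gene, fell by 1.80 ± 0.38 on the log2 scale (adjusted p = 0.0219) and Jak1, a kinase of the receptor, rose by 0.97 ± 0.14 (adjusted p = 0.0058).

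Among genes of Flt3 and Kit signalling and its early feedback 3 of 20 rose and 5 fell, with a median of 0.09, and 2 rose and 5 fell without the array labelled RAG2ko-3. Besides the receptors themselves, the ubiquitin ligase Cbl fell by 1.18 ± 0.24 on the log2 scale (adjusted p = 0.0184). The feedback genes Spry1 and Spry2, inhibitors of receptor kinase signalling, rose by 1.69 ± 0.26 and 1.51 ± 0.30 (adjusted p = 0.00643 and 0.0184), and Phlda1 by 1.85 ± 0.43 (adjusted p = 0.0321). Phlda1 missed the threshold once the array labelled RAG2ko-3 was left out (adjusted p = 0.0737). The Notch pathway list had 2 of 17 genes higher, Hes1 and Hes5, and 2 lower, Notch1 and Notch2 (-2.44 ± 0.16, adjusted p = 0.000183), with 1 higher and 3 lower without the array labelled RAG2ko-3. The shares over all genes were 8.74% higher and 8.44% lower. Hes5, a repressor of the same family as Hes1, was dim on all EBFko arrays (3.27, 4.91 and 5.07) and just above the dim limit on the RAG2ko arrays (7.45, 6.49 and 6.77). Its floored difference was 0.90, and it missed the threshold without that array (adjusted p = 0.0715).

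Of 26 cell cycle genes 2 rose and 0 fell, beside 8.74% and 8.44% of all genes, with a median of 0.13, and the mean level of the list was 12.02 to 12.23 on the EBFko arrays and 12.21 to 12.37 on the RAG2ko arrays. The 2 were Rrm2, a ribonucleotide reductase subunit (1.02 ± 0.19), and Ccne1, cyclin E1 (0.56 ± 0.14), of which Ccne1 missed the threshold without the array labelled RAG2ko-3 (adjusted p = 0.055). Among D cyclins and G1 inhibitors 1 of 14 rose and 4 fell, the latter including Cdk6 (-3.17 ± 0.52, floored difference -1.96) and the inhibitor Cdkn1a (-0.94 ± 0.24). Without that array 1 rose and 2 fell, and Cdkn1a missed the threshold (adjusted p = 0.0544). Of 18 apoptosis regulators 1 rose and 4 fell, and 2 rose and 4 fell without that array. Pmaip1, also called Noxa, read 10.55, 10.53 and 10.57 against 3.56, 5.03 and 1.80 (-7.08 ± 0.70, floored difference -4.55, adjusted p = 0.000976). The single rise with all arrays, Xiap (1.01 ± 0.23, adjusted p = 0.029), holds for its brightest probe set only, since 1 of its 5 probe sets was higher and 2 were lower.

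Of 18 glycolysis genes 5 rose and 1 fell, with a median of 0.51, and 4 rose and 1 fell without the array labelled RAG2ko-3. Pfkp, the platelet form of phosphofructokinase, read 9.57, 9.58 and 9.79 on the EBFko arrays and 12.36, 12.17 and 12.69 on the RAG2ko arrays (2.76 ± 0.24, adjusted p = 0.000533), and Aldoa and Pkm rose by 0.84 ± 0.18 and 0.82 ± 0.19 (adjusted p = 0.0217 and 0.0294). Pkm missed the threshold without that array (adjusted p = 0.0578). The glucose transporter Slc2a3 was the 1 fall, at 11.14, 11.09 and 11.85 against 1.76, 3.09 and 9.26 (-6.66 ± 1.71, floored difference -4.27, adjusted p = 0.0453). Its RAG2ko values spread widely, with the array labelled RAG2ko-3 far above its replicates. Of the interferon list 3 of 13 rose and 1 fell, the rises being the guanylate-binding proteins Gbp2 and Gbp3 and Ifit2, by 2.15 to 2.38, and the fall Mx1 (-3.39 ± 0.66). Mx1, an antiviral GTPase, read 6.90, 7.0 and 7.03 on the EBFko arrays and 4.06, 3.02 and 3.69 on the RAG2ko arrays, so its floored difference was -0.97. Without the array labelled RAG2ko-3, 2 of the interferon list rose and 2 fell, and Ifit2 missed the threshold (adjusted p = 0.0545). Of immediate early and stress genes 3 of 18 rose and 1 fell, and 2 rose and 3 fell without that array, with Jun at 3.55 ± 0.44, Atf3 at 3.52 ± 0.54 (floored difference 3.02) and Gadd45b at -1.63 ± 0.27. Of 10 plasma cell genes 2 rose and 2 fell, Mzb1 by 4.36 ± 0.43 and Irf4 upward, Jchain and Xbp1 (-1.18 ± 0.18) downward.

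**Figure D4:**
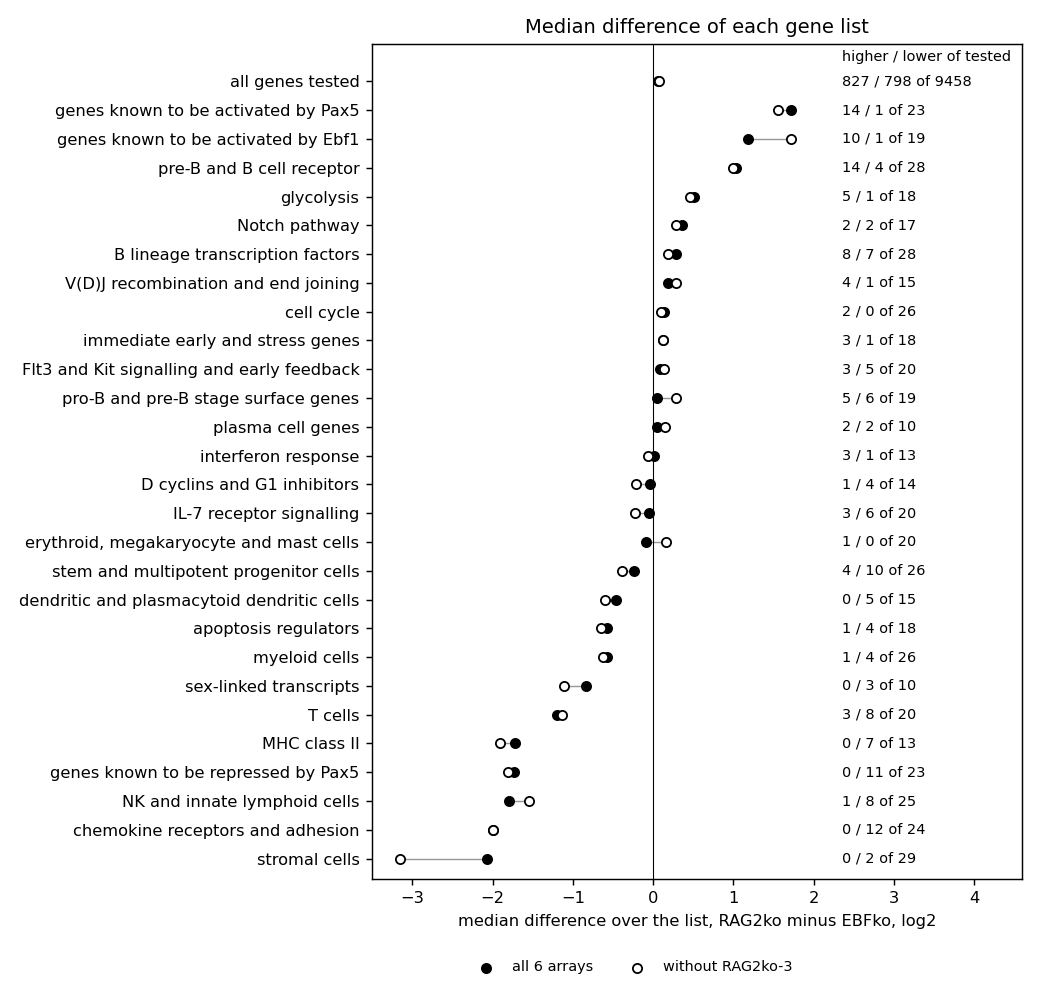
Median difference in log2 signal, RAG2ko minus EBFko, over the tested genes of each list, with all 6 arrays (filled) and without the array labelled RAG2ko-3 (open), and at the right the number of genes higher and lower of those tested. The stromal list moves most when that array is left out, from -2.07 to -3.15, while the lists for genes activated and repressed by Pax5 are 1.72 and -1.73 with it and 1.56 and -1.81 without it.

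The largest changes outside these lists were taken by size. Pde2a, a cyclic nucleotide phosphodiesterase named here only through its description, read 5.53, 6.0 and 4.85 on the EBFko arrays and 13.33, 13.45 and 13.47 on the RAG2ko arrays (7.96 ± 0.28, floored difference 7.42, adjusted p = 1.6e-05). The aldo-keto reductases Akr1c12 and Akr1c13 rose by 6.80 ± 0.58 and 6.72 ± 0.29 (floored differences 6.08 and 6.0, adjusted p = 0.000508 and 2.88e-05). These reductases are close copies, so their probe sets may share signal. On the falling side Tnni1, a slow skeletal troponin, read 12.49, 12.73 and 11.71 against 1.70, 3.89 and 3.06 (-9.43 ± 0.57, floored difference -6.31, adjusted p = 0.000115). Ifitm1, an interferon-induced membrane protein, fell from 14.64, 14.58 and 13.63 to 8.58, 8.59 and 9.16 (-5.50 ± 0.30, adjusted p = 7.8e-05), and Ramp1, a receptor-modifying protein, from 11.77, 11.79 and 12.41 to 5.83, 5.60 and 7.16 (-5.79 ± 0.41, adjusted p = 0.000225).

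Many of the called probe sets could not be named, as was so for most of those tested. Of the 2623 probe sets that rose and the 2550 that fell, 1281 and 1168 have no gene symbol here. They came from 23836 such probe sets tested, so both shares were below the 6.41% and 6.23% of all tested probe sets. A further 153 genes were known only from the description of their probe sets, of which 51 rose and 45 fell; this share is not comparable with the background, because part of these names were looked up for probe sets already known to be called. Besides Pde2a and Igll1, the largest rises among them were Alpl, the tissue-nonspecific alkaline phosphatase, at 6.35, 6.38 and 6.25 against 11.15, 11.12 and 11.01 (4.76 ± 0.16, adjusted p = 1.6e-05), Bst1, and Scn4b, a sodium channel subunit, at 6.55 ± 0.71 with a floored difference of 4.36. The largest falls were Ncf1, Trim14 (-5.16 ± 0.33), the actin-severing protein gelsolin (Gsn, -4.99 ± 0.90), the ketone body enzyme Bdh1 (-7.92 ± 0.33, floored difference -4.89) and the ceramide synthase Cers6 (-5.66 ± 0.48, floored difference -4.85).

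Where the Pax5ko line lay between these ends differed from gene to gene. These values share arrays with the main comparison and come from the same fit. Vpreb1 read 14.21, 14.21 and 13.96 in Pax5ko, near its RAG2ko level (RAG2ko minus Pax5ko 0.41, adjusted p = 0.82). Pou2af1, at 12.97, 13.01 and 12.88, was near its RAG2ko level too (0.73, adjusted p = 0.223). The fit pools the spread of all lines, and both genes varied most on the dim EBFko arrays (SD 2.07 and 0.70). These p-values therefore do not show equal levels, and each RAG2ko array read above every Pax5ko array for both genes. Enpep, at 4.05, 0.86 and 2.98, and Lef1, at 6.12, 6.16 and 6.58, were near their EBFko levels and lay below RAG2ko by 11.28 and 5.02 (adjusted p = 0.00181 and 0.000342). Cd79a lay between, at 9.54, 9.45 and 9.75, above EBFko by 4.32 and below RAG2ko by 3.86 (adjusted p = 0.000331 and 0.000302). Blnk was lowest in Pax5ko, at 5.47, 5.21 and 4.85. Of the falls, Cd34 was already dim in Pax5ko (4.79, 2.76 and 2.46), Jchain was as bright as in EBFko (15.06, 15.06 and 15.07), and Flt3 lay between (9.72, 9.69 and 9.87).

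Stromal cell transcripts moved with the comparison and with the array labelled RAG2ko-3. With all arrays 2 of 29 stromal genes were called lower and 0 higher, and without that array 15 were lower, with a median of -3.15 against -2.07. Collagen Col3a1 read 12.61, 11.01 and 13.58 on the EBFko arrays and 7.43, 8.84 and 12.55 on the RAG2ko arrays, and Sparc, a matrix protein, 13, 11.10 and 12.78 against 6.46, 8.68 and 11.35. Each was far lower on RAG2ko-1 and RAG2ko-2 than on the array labelled RAG2ko-3, where it lay within the EBFko range. Pdgfrb and Thy1 were the 2 genes called with all arrays, and Thy1 is also a T cell marker. Pdgfrb was dim on all RAG2ko arrays, at 3.54, 3.44 and 4.66. Its difference of -2.92 became -0.81 after flooring and then missed the threshold (adjusted p = 0.0778). The part of stromal signal in the falls was not tested.

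Several named falls had their highest RAG2ko value on the array labelled RAG2ko-3, the array of that line with the highest stromal level. Tsc22d1, a leucine zipper factor, read 12.99, 13.17 and 13.42 on the EBFko arrays and 5.65, 5.21 and 8.76 on the RAG2ko arrays (-6.65 ± 0.84, adjusted p = 0.00275), and Gsn read 12.75, 12.76 and 13.02 against 6.67, 6.89 and 10.02. In both genes, as in Cd9 and Slc2a3, the array labelled RAG2ko-3 was the highest of its line and still below every EBFko array. Without it the differences were -7.76 for Tsc22d1, -6.07 for Gsn, -7.43 for Cd9 and -8.94 for Slc2a3. Cd34, Ccr9, Fcer1g and Flt3, by contrast, were below the dim limit on that array, at 3.33, 2.45, 2.80 and 5.45.

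**Figure D5:**
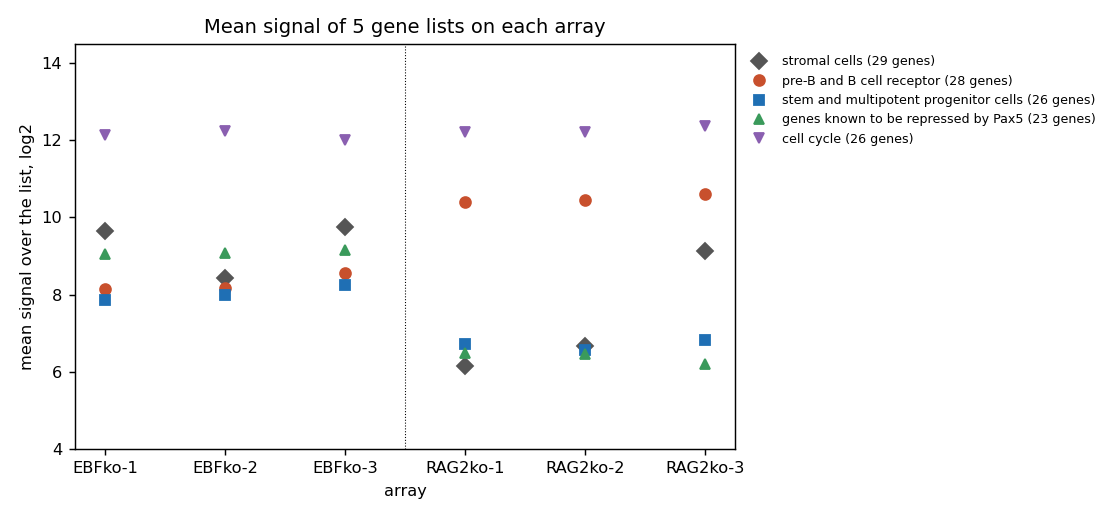
Mean log2 signal over the tested genes of 5 lists on each array, EBFko at the left and RAG2ko at the right. The stromal list reads 6.15, 6.66 and 9.13 on the RAG2ko arrays, while the list for B cell receptor genes (10.41 to 10.61) and the cell cycle list (12.21 to 12.37) vary little among them.

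Transcripts linked to sex also separated the lines. Xist, the RNA that silences an X chromosome, read 13.96, 14.23 and 13.99 on the EBFko arrays and 7.48, 8.24 and 7.80 on the RAG2ko arrays, a difference of -6.22 ± 0.23 (adjusted p = 1.62e-05). Of 10 sex-linked genes 3 fell and 0 rose, and 5 fell without the array labelled RAG2ko-3. The 2 others called with all arrays were Kdm6a (-1.02 ± 0.20) and Eif2s3x (-0.65 ± 0.16), which are known to escape X inactivation. The Y-linked gene Ddx3y read 7.77, 5.80 and 8.23 against 1.24, 4.42 and 7.28, and Eif2s3y 6.80, 5.84 and 7.05 against 1.71, 1.22 and 6.20, neither of them called. Both Y-linked genes were highest within the RAG2ko line on the array labelled RAG2ko-3, the array with the highest stromal level. Whether the lines came from animals of different sex is not given in the sources used here, and the part of sex in the other results was not tested.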

How the data were processed

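Total RNA of cultured mouse cells was measured on 9 Affymetrix mouse expression arrays, 3 per line. The authors deposited linear intensities, 1 for each probe set of each array; GCRMA is named in the submitters' processing notes, with no version, and the genome build is not given in the sources used here. They also deposited a table for each line with 1 ratio per probe set, whose reference is not stated, used here only for gene descriptions and as an alternative without a test.

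The intensities were taken to log2, and the 9 arrays were quantile normalized together. Control probe sets (64 of 45101) were left out, and 40928 probe sets above 4 (log2) on at least 3 arrays were tested with limma 3.58.1 (R 4.3.3; lmFit and eBayes on all 9 arrays, Benjamini-Hochberg adjustment, threshold 0.05). The number of arrays limits the precision. Probe sets were named by accession (13127), by sharing the description of one so named (4965) or through a table of full gene names (376), against RefSeq tables of assembly GRCm38.p6. A gene is its tested probe set with the highest mean.

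The text names a fixed set of genes, the 12 largest rises and 12 largest falls by floored difference among genes whose arrays do not overlap, up to 3 rises and 3 falls per list, and the 5 largest of each among genes named by description only. The comparison, the 27 gene lists and the named genes were chosen with earlier results of these data known. The calculation was tested on simulated data. Some genes that these rules name are not reported here. The alternatives tried cover normalization, filter, dim signals, probe set choice, array weights, the arrays in the fit, the replicate number as a block and each array left out.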

Additional observations from a re-analysis of the deposited data

How the results depend on the processing

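The counts of calls depended on which arrays, and how many, were in the fit. With the 6 compared arrays fitted alone, 1561 probe sets (508 genes) were higher and 1610 probe sets were lower, and with RAG2ko replicate 3 also left out 1165 probe sets (387 genes) were higher and 1815 (597 genes) were lower. Of the 119 genes chosen by the naming rules, 21 lost their call on the 6 arrays alone (adjusted p = 0.0532 to 0.119). They were Aldoa, Bach2, Bcl2, Ccne1, Cd3e, Cd9, Cdkn1a, Dapp1, Ddit3, Ebf1, Eif2s3x, Eng, Hes1, Hes5, Ifit2, Kdm6a, Pkm, Rrm2, Slc2a3, Xiap and Xrcc6. Raising signals below 64 to 64 gave 4068 probe sets (1282 genes) higher and 3519 (1132 genes) lower, with fewer probe sets tested. Leaving out each array in turn gave 1517 to 2709 probe sets higher and 1511 to 3211 lower, and 521 to 872 genes higher and 513 to 1031 lower; RAG2ko replicates 1 and 2 and EBFko replicates 1 and 2 gave the low counts of rises (1517, 1521, 1586 and 1672) and EBFko replicates 1 and 2 those of falls (1511 and 1547). Leaving out replicate 3 of every line, chosen after seeing the data, gave 1177 probe sets (409 genes) higher and 1485 (504 genes) lower. Without quantile normalization 2013 probe sets were higher and 2965 lower, a split that differs from the 2623 and 2550 reported, and the median difference moved from 0.06 to -0.02.

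With the replicate block 1915 probe sets were higher and 2143 lower. Over all tested probe sets, deviations of same-numbered EBFko and RAG2ko arrays from their group means correlated weakly, at r = 0.004, 0.057 and 0.109. Not every array correlated best with its own number. The mean stromal level was nonetheless highest on replicate 3 of each line, at 9.75, 9.97 and 9.13 in EBFko, Pax5ko and RAG2ko. In EBFko and Pax5ko, replicate 1 read 9.66 and 9.46, and replicate 2 was the lowest, at 8.43 and 8.11. Whether same-numbered arrays shared a batch was not tested. Over 119 genes chosen by the naming rules and 24 alternatives with a test, 2593 of 2850 values kept their direction and side of the threshold, 247 lost the call and 9 gained it. The 1 reversal was Xiap, at -0.60 when the probe sets of a gene were averaged, since its probe sets were called in both directions. The deposited ratio tables, which allow no test here, moved 54 of the 119 differences by more than the spread between replicates. Each group has 3 arrays, which limits the precision of every value.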
